A study of Mus musculus with 22 samples.

Results

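Hippocampal cells of mice that carried the tetracycline transactivator without the tau responder, labelled rTta, were set against those of old wild-type mice, labelled WT. The comparison took the cell columns of genotype rTta at 33 weeks and of genotype WT at 32 to 40 weeks from 1 table of single-cell counts, kept columns with at least 300 counts in total and genes counted in both groups, and summed the counts per animal, over all cells and within each class of cells named from marker genes. Of the 22 animals in the series, 8 were compared, 3 rTta and 5 WT, with 8883 of the 27198 kept cells. The rTta animals were all 33 weeks old. WT replicates 1 to 5 were 40, 39, 39, 35 and 32 weeks old. Both groups had the mixed strain label Fvb/B6 and the same tissue label, hippocampus. Among the other animals were 3 old P301L mice of 48, 41 and 41 weeks, a label that in the published cross stands for the tau responder alone. The remaining animals were rTg4510 mice, in which both transgenes meet, and young mice. Libraries were made by Drop-seq, which pairs each cell with a barcoded bead inside a droplet, and the 3' ends of their transcripts are counted by unique molecular identifiers.

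The transactivator tTA is a bacterial repressor fused to a viral activation domain. It binds a tetracycline-response promoter and drives whatever gene lies behind it, and doxycycline releases it. In the published rTg4510 cross the Camk2a promoter drives tTA in forebrain excitatory neurons and the responder is human tau with the P301L change. The tTA transgene of that cross has been reported to lie on chromosome 12 with loss of neighbouring DNA, so a mouse with the transactivator alone differs from wild type at that site as well as in carrying the activator. No label names the promoter, the founder line or doxycycline, the transactivator has no row in the count table, and what the labels call rTta is taken here only as the transactivator-only genotype.

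The 3 rTta libraries held 1487428 to 1954122 counts and the 5 WT libraries 780831 to 2342345, with 1232 to 1474 and 499 to 1593 kept cells per animal. The median kept cell had 722.5 to 814.5 counts in rTta animals and 817 to 1555 in WT animals, groups that did not overlap (exact permutation test, two-sided, p = 0.0714 with 3 animals against 5). Correlations between animals over all genes were 0.968 to 0.979 within rTta, 0.919 to 0.96 within WT and 0.916 to 0.963 between the groups. Only 4 barcodes occurred in more than 1 of the 8 libraries. The deposited table is a merger: 12614 genes were counted in every animal, 801 were counted in each rTta and P301L animal and in no other, and 270 were at 0 in all rTta and P301L animals. The rTta genotype and the part of the table therefore cannot be told apart against WT. For that reason the values of the 3 P301L animals, which share that part, stand beside the results. The 2 contrasts share the rTta animals and are not independent.

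The genes that the transgenes touch were read first. Camk2a, the kinase gene whose promoter is used in the published line, measured 763, 980 and 932 CPM (counts scaled to a library of 1000000) in the rTta animals and 1080, 1050, 491, 577 and 879 in WT replicates 1 to 5. Mapt, which encodes tau, measured 584, 573 and 461 against 595, 556, 632, 338 and 470 CPM. Both ranges overlapped, and neither gene passed the test: the log2 change was 0.06 ± 0.31 (SE) for Camk2a and -0.01 ± 0.24 for Mapt, with edgeR adjusted p-values of 0.99 and 1.0. Fgf14, where the tau transgene of the published line has been reported to lie, gave 0.27 ± 0.30 (edgeR adjusted p = 0.93). Prnp, the prion protein gene used in the tau responder vector, gave -0.16 ± 0.23 in the whole hippocampus (edgeR adjusted p = 0.96).

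Wdr60, the first of the genes at the reported tTA site, was lower in rTta hippocampus. Wdr60 encodes an intermediate chain of the dynein-2 motor that carries cargo back along cilia. It measured 47.0, 47.2 and 31.7 CPM in the rTta animals, 132, 146, 89.9, 85.0 and 182 in WT and 149, 87.7 and 59.0 in P301L. Each rTta animal was below each WT animal and each P301L animal. The log2 change against WT was -1.66 ± 0.29 (edgeR adjusted p = 0.012) and that against P301L was -1.24 (edgeR adjusted p = 0.12). In the whole hippocampus 25 of 12414 genes passed the test at an adjusted p of 0.05, a background of 0.201%, with 0.0564% higher and 0.145% lower. Against P301L 0.129% passed. With the WT animals of 32 and 35 weeks alone, and without any single rTta animal, the Wdr60 call was lost and its direction was kept, between -1.78 and -1.50.

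The other genes of the stretch were lower in mean but did not pass. Esyt2, an endoplasmic reticulum tether for the plasma membrane, measured 23.5, 33.8 and 30.3 CPM against 41.5, 59.0, 49.8, 36.9 and 64.3 in WT and 56.3, 59.1 and 68.6 in P301L. Its log2 change against WT was -0.84 ± 0.21 (edgeR adjusted p = 0.15). Ncapg2, a subunit of the condensin II complex, stayed between 2.09 and 2.76 CPM in rTta animals and between 3.6 and 10.7 in WT, which is 12 against 45 counts in all (-1.35 ± 0.41, edgeR adjusted p = 0.31). Ptprn2, a receptor-type phosphatase of dense-core vesicles, overlapped between groups (-0.56 ± 0.31, edgeR adjusted p = 0.79). All 4 measured genes had negative changes, with a median of -1.10 against -0.04 over all genes tested, and 1 of 4 was called. In GRCm38 coordinates (GENCODE M21) these genes follow each other on chromosome 12: Wdr60 at 116206262 to 116263022 on the minus strand, Esyt2 at 116281196 to 116391050, Ncapg2 at 116405402 to 116463731 and Ptprn2 at 116485720 to 117276849, the last 3 on the plus strand. The fifth gene of the site, Vipr2, a receptor for vasoactive intestinal peptide, was counted only in the rTta and P301L part of the table. It measured 9.38, 22.3 and 11.7 CPM in rTta animals and 3.12, 3.97 and 13.7 in P301L animals, and has no WT value.

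**Figure D1:**
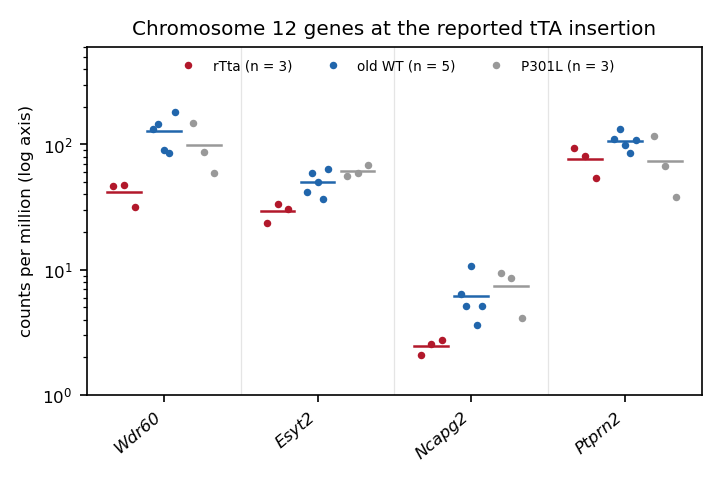
CPM (log axis) of the 4 measured chromosome 12 genes at the reported tTA insertion in whole hippocampus, with 1 point per animal and a bar at the mean of the 3 rTta, 5 old WT and 3 P301L animals. For Wdr60 and Esyt2 the rTta animals, at most 47.2 and 33.8, sit below all others. Of the 4 genes only Wdr60 passed the test, and the share of all genes that separate in this way is not given.

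Wdr60 was also called lower in 3 of the 10 classes and clusters in which it was tested, and its change was negative in the other 7. In neuron-like cells it fell from 171, 142, 92.1 and 174 CPM in WT to 24.1, 14.2 and 27.2 in rTta animals, which did not overlap (log2 change -2.70 ± 0.44, edgeR adjusted p = 0.00043). In excitatory neuron-like cells the change was -1.45 ± 0.34 (edgeR adjusted p = 0.031) and in microglia-like cells -2.0 ± 0.53 (edgeR adjusted p = 0.031, on 13 against 58 counts). In each of those classes 1 WT animal lay inside the rTta range, at 47.0 and 0 CPM, and the calls were lost when rTta replicate 1, 2 or 3 was left out. The call in neuron-like cells was lost when cells were thinned to at most 1000 counts or classed by marker share.

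Beyond the insertion, the changes that recurred across cell classes came from a handful of genes. Over 11 classes and clusters, 330 of 52703 gene and class pairs were called, 145 higher and 185 lower in rTta, and these covered 267 genes. Genes named for the size of their change were taken from those whose rTta and WT animals did not overlap, so the absence of overlap describes them and supports nothing. Of these genes, 23 were called in at least 2 classes and 7 in at least 4. Rpl3, Rps2, Rps18 and Pttg1 were higher, and Scg5, Gabra2 and Hddc3 were lower. Of the 25 genes called in the whole hippocampus, 20 were also called in a class.

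The promoter windows of these genes are shown because each was called in at least 5 classes, in 1 direction. The classes come from the same animals and are not independent. Scg5 and Gabra2 are neuronal genes that were also called in oligodendrocyte-like cells. There the neuron markers summed to 772 to 1480 CPM in rTta and 1250 to 3120 in WT, and their part in those calls was not tested. Each is the 120 bases before the RefSeq transcription start in GRCm38.p6, 5′ to 3′ on the strand of the gene. Capitals mark matches on either strand to 4 short elements. The first is CCGGAA, the core of sites bound by ETS factors, which 8.3% of 27025 windows of the same length held. The next is the element written CCAAT, held by 22.1% of those windows. The one written TATAA was held by 12.4% of the windows. The last is GGGCGG, the GC box that binds Sp1, held by 26.9% of the windows. Of the 7 genes, 6 had a window in the table, and Rpl3 is named only.
Rps2 (chr17:24719943-24720062, plus strand): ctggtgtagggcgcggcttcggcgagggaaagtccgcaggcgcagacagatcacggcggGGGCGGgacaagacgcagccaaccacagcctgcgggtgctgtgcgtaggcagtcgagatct
Rps18 (chr17:33955666-33955785, minus strand): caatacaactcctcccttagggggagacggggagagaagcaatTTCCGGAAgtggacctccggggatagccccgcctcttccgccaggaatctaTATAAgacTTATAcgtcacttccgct
Pttg1 (chr11:43425982-43426101, minus strand): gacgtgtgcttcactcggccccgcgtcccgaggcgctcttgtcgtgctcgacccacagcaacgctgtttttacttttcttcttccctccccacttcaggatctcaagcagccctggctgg
Scg5 (chr2:113829092-113829211, minus strand): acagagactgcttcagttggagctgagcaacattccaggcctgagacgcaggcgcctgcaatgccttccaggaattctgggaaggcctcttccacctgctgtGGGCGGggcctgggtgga
Gabra2 (chr5:71095850-71095969, minus strand): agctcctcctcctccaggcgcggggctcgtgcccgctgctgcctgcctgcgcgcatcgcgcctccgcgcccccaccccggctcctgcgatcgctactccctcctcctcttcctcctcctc
Hddc3 (chr7:80343017-80343136, plus strand): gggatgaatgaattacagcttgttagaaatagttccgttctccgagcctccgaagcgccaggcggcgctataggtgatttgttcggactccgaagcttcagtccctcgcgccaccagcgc
The Rps2 and Scg5 windows each held 1 GGGCGG, although Rps2 was higher and Scg5 lower. The Rps18 window held the ETS core on both strands, overlapping, and the TATAA element on both strands as well. None of the 4 elements was written in the windows of Pttg1, Gabra2 and Hddc3.

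Rpl3, a core protein of the large ribosomal subunit, measured 254, 237 and 236 CPM in the 3 rTta animals and 5.13, 5.13, 1.95, 1.35 and 8.86 in the 5 WT animals. The P301L animals gave 3.13, 6.64 and 71.4. All rTta animals were far above all others, and P301L replicate 3 stood between. The means were 243 ± 9.84 (SD, n = 3) and 4.49 ± 3.01 (SD, n = 5), a log2 change of 5.72 ± 0.67 (edgeR adjusted p = 0.00028). Rpl3 was called higher in 9 of the 10 classes in which it was tested. In microglia-like cells it had 134 counts over the rTta animals and none over the WT animals, at least 46.1-fold higher against a floor of 3 counts over the group. In endothelial-like cells the counts were 94 and 0, at least 50.4-fold higher.

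Rps18 and Rps2 belong to the small subunit and followed the same pattern. Rps18 measured 203, 207 and 207 CPM against 7.70, 7.69, 4.89, 8.55 and 5.91 in WT and 11.7, 7.31 and 103 in P301L (log2 change 4.78 ± 0.66, edgeR adjusted p = 0.0014). Rps2 measured 232, 277 and 275 CPM against 13.3, 35.9, 20.5, 14.8 and 22.9 in WT and 14.1, 18.6 and 130 in P301L (3.6 ± 0.53, edgeR adjusted p = 0.0018). For both, rTta and WT animals did not overlap, and P301L replicate 3 again lay between. Rps18 was called higher in 8 of 10 classes tested and Rps2 in 9 of 11. These proteins have many near-identical copies in the genome, and reads from such copies could be split or dropped by the counting, so the levels are uncertain. Rps18 also overlaps Vps52, and Rpl3 overlaps Syngr1, on the opposite strand, and whether counting used strand is not given in the sources used here. In excitatory neuron-like cells Vps52 was called lower.

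Few other cytosolic ribosomal protein genes were called. Of 72 tested in whole hippocampus, the 3 above were higher and 0 lower, with 45 changes below 0 and a median of -0.15 against -0.04 over all genes. In neuron-like cells 3 of 49 were called higher, against 0.183% of all genes tested there, and 39 of the 49 had negative changes. In microglia-like cells 34 of 47 had positive changes, with a median of 0.35 and Rplp1 called higher besides the 3, and in endothelial-like cells 29 of 46 had positive changes (median 0.10). In cluster 4, an unnamed cluster of shallow cells with a median of 471 counts, 0.321% of all genes tested were called lower. Of the 50 ribosomal protein genes tested there, 5 were called lower. Among these, Rpl38 fell from 457, 257, 338 and 315 CPM in 4 WT animals to 92.9, 89.9 and 55.1 in rTta (log2 change -2.18 ± 0.39, edgeR adjusted p = 1.9e-05). P301L animals measured 60.2, 18.8 and 76.3 CPM for Rpl38, close to or below the rTta animals.

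Pttg1, which encodes securin, the inhibitor of separase in mitosis, measured 125, 112 and 138 CPM in rTta animals. The WT animals gave 13.3, 3.85, 10.7, 13.5 and 6.65 and the P301L animals 13.3, 12.6 and 54.9. Groups rTta and WT did not overlap (log2 change 3.55 ± 0.44, edgeR adjusted p = 0.00028), and the rise was called in 6 of 8 classes tested. In astrocyte-like cells 98 counts stood against 1, an rTta to WT ratio of 160 in CPM (95% counting interval: 28.1 to 6390). Acp1, a low-molecular-weight tyrosine phosphatase, measured 41.3, 58.7 and 53.0 CPM against 5.56 to 7.39 in WT and 4.69, 3.99 and 27.4 in P301L (2.93 ± 0.49, edgeR adjusted p = 0.0077). Nxpe4 rose from 3.6 to 11.1 CPM in WT to between 17.8 and 21.4 (1.59 ± 0.32, edgeR adjusted p = 0.034). Against P301L the changes of Rpl3, Rps18, Rps2, Pttg1 and Acp1 were 3.29, 2.41, 2.30, 2.28 and 2.22, and none passed (edgeR adjusted p between 0.068 and 0.19). With the WT animals of 32 and 35 weeks alone, the whole-hippocampus calls of all 5 were lost, with 2 WT animals left, and no log2 change fell below 2.83 under any alternative. The Acp1 call was also lost without rTta replicate 2, and the Nxpe4 call under 9 of the 17 alternatives.

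**Figure D2:**
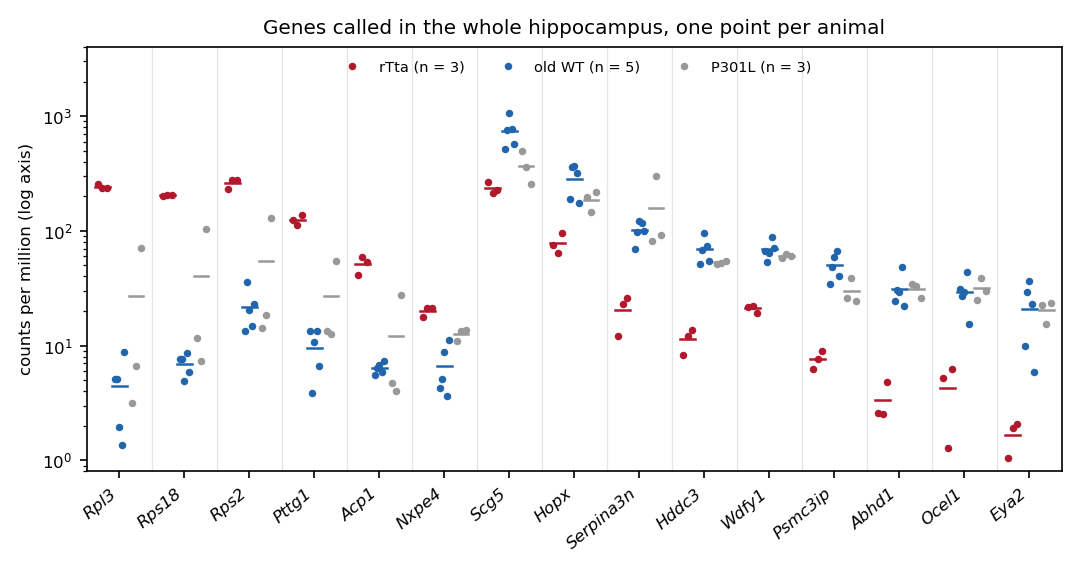
CPM (log axis) of 15 genes called in whole hippocampus, with 1 point per animal and a bar at each group's mean. The 3 rTta animals form tight groups, for Rpl3 at 236 to 254 against at most 8.86 in WT, and 1 P301L animal lies between them for the 5 genes at the left.

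Among the genes that fell, Scg5 was called in 7 of 11 classes tested. Scg5 encodes 7B2, the chaperone that prohormone convertase 2 needs to mature in secretory granules. It measured 268, 212 and 226 CPM in rTta hippocampus and 520, 759, 1060, 768 and 572 in WT, with no overlap (log2 change -1.72 ± 0.33, edgeR adjusted p = 0.025). P301L animals measured 497, 361 and 254 CPM, and the lowest of them was inside the rTta range. In neuron-like cells Scg5 was 552, 399 and 543 CPM against 1470, 1370, 1830 and 1690 (-1.69 ± 0.23, edgeR adjusted p = 2.9e-05), and there it was also below P301L, at 1560 and 1100 (-1.42, edgeR adjusted p = 0.0055). Of 18 neuropeptide and secretory granule genes tested in whole hippocampus, Scg5 was the 1 called, 15 had negative changes, and their median was -0.63. The list holds interneuron peptides such as Sst and Vip. Interneuron markers summed to 1410 to 1860 CPM in rTta hippocampus and 1760 to 3700 in WT. Among neuron classes the list median was -0.11 in interneuron-like cells (-0.08 over all genes), 0.01 in neuron-like and -0.78 in excitatory neuron-like cells. The part of cell makeup in the whole-hippocampus median was not tested.

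Gabra2, the alpha-2 subunit of the GABA-A receptor, measured 88.8, 74.0 and 72.3 CPM in rTta animals against 281, 199, 214, 195 and 332 in WT and 207, 134 and 63.1 in P301L. The rTta and WT animals did not overlap (log2 change -1.70 ± 0.33, edgeR adjusted p = 0.027). It was called in 6 of 10 classes. In excitatory neuron-like cells it fell from 605, 538, 533, 525 and 601 CPM to 219, 157 and 115 (-1.83 ± 0.25, edgeR adjusted p = 1.4e-05), and against P301L by 1.32 on the log2 scale (edgeR adjusted p = 0.016). In interneuron-like cells the change was -2.49 ± 0.52 (edgeR adjusted p = 0.031). Of the 17 GABA genes tested in whole hippocampus no other was called, and the median was -0.20.

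Hddc3, an HD-domain hydrolase, measured 8.36, 12.1 and 13.8 CPM in rTta animals and 51.3, 67.9, 96.7, 73.3 and 54.7 in WT. The P301L animals, at 51.6, 52.5 and 54.9, lay with or just above the lowest WT animals (log2 change -2.66 ± 0.33 against WT, edgeR adjusted p = 0.00028, and -2.24 against P301L, edgeR adjusted p = 0.0078). In interneuron-like cells 0 counts stood against 40, at least 5.22-fold lower. Wdfy1, an endosomal FYVE-domain protein, and Abhd1, an alpha/beta hydrolase, behaved alike in whole hippocampus. Wdfy1 measured 21.9, 22.3 and 19.3 CPM against 53.8 to 88.6 in WT (-1.77 ± 0.23, edgeR adjusted p = 0.00031), and Abhd1 2.61, 2.55 and 4.82 against 22.2 to 48.6 (-3.30 ± 0.48, edgeR adjusted p = 0.0015). Both were also lower than in P301L (edgeR adjusted p = 0.0083 and 0.0078). In whole hippocampus Hddc3, Wdfy1 and Abhd1 kept their calls under all 17 alternatives. In interneuron-like cells the Hddc3 call was lost under 8 of 14. Each of the 3 overlaps a neighbour, Man2a2, Mrpl44 and Preb, and could share its reads.

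Serpina3n, a secreted protease inhibitor that reactive astrocytes raise, was low in rTta animals. It measured 12, 23 and 26.2 CPM against 68.8, 97.4, 122, 117 and 99.7 in WT and at least 81.4 in P301L. No rTta animal reached the lowest animal of either other group (log2 change -2.39 ± 0.44 against WT, edgeR adjusted p = 0.017, and -2.99 against P301L, edgeR adjusted p = 0.0078). In oligodendrocyte-like cells it was 0, 21.3 and 53.6 CPM against 109 to 314 (-2.91 ± 0.57, edgeR adjusted p = 0.0055). In neuron-like cells 0 counts stood against 25, at least 10.3-fold lower. It was the 1 gene called among the 12 reactive astrocyte genes tested in whole hippocampus, of which 10 had negative changes, and in astrocyte-like cells it did not pass (-2.38, edgeR adjusted p = 0.40).

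Hopx, a homeodomain-only protein of astrocytes and neural stem cells, measured 75.7, 64.5 and 95.1 CPM against 190, 358, 365, 321 and 176 in WT and 196, 146 and 220 in P301L. The rTta animals were below both groups (log2 change -1.92 ± 0.36, edgeR adjusted p = 0.018, against WT and -1.27, edgeR adjusted p = 0.19, against P301L). Astrocyte-like, excitatory neuron-like and oligodendrocyte-like cells each gave a call. Eya2, a phosphatase and transcriptional coactivator, changed by -3.66 ± 0.76 (edgeR adjusted p = 0.044, on 8 against 142 counts). Psmc3ip, known from meiotic recombination, changed by -2.78 ± 0.56 (edgeR adjusted p = 0.036) and Ocel1 by -2.87 ± 0.50 (edgeR adjusted p = 0.012). Lpl, lipoprotein lipase, measured 30.3, 24.3 and 15.2 CPM against 63.0 to 109 (-1.96 ± 0.37, edgeR adjusted p = 0.018). For all of these the rTta and WT animals did not overlap, which the naming rule required. The calls of Scg5, Gabra2, Serpina3n, Hopx, Eya2, Psmc3ip and Lpl were each lost when rTta replicate 1, 2 or 3 was left out, and their direction was kept. Of the 25 calls in whole hippocampus, 10, 8 and 10 remained without rTta replicates 1, 2 and 3, and 15 without WT replicate 2. Acp1, Nxpe4, Ocel1 and Psmc3ip overlap or adjoin Alkal2, Nxpe2, Nr2f6 and Mlx in the annotation and could share reads with them.

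**Figure D3:**
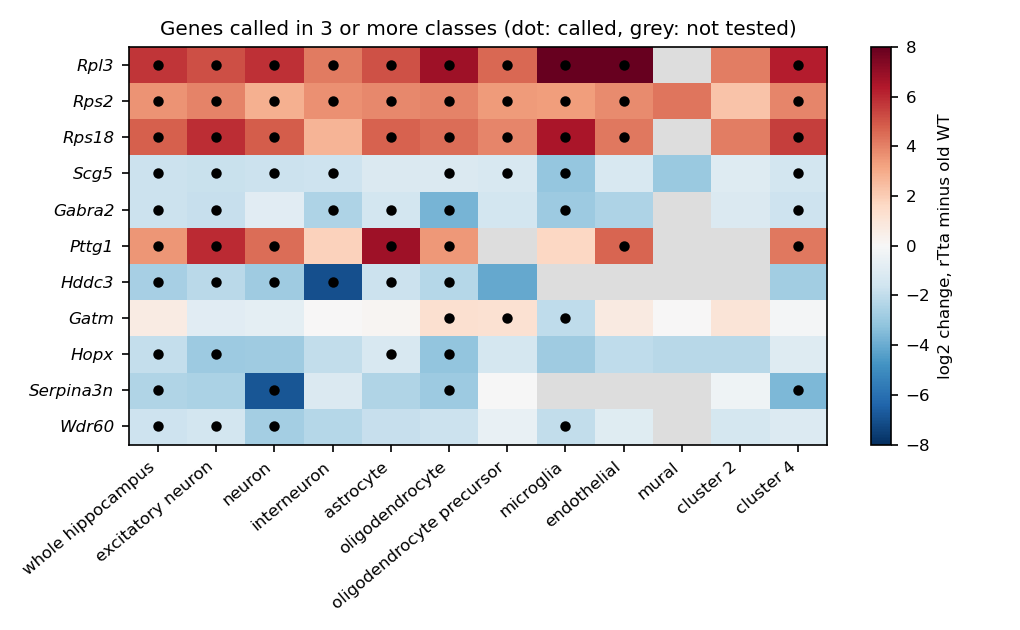
Log2 change (rTta minus old WT, colour, limited to -8 to 8) of the 11 genes called in at least 3 classes, by class or cluster, where a dot marks a call and grey marks no test. The 3 ribosomal protein genes are positive in every class tested and Gatm is the 1 gene called in both directions. The darkest cells rest on a group with no counts, where the fitted value is no measure of size.

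Microglia-like cells gave the most calls, 110 of 4324 genes, 45 higher and 65 lower in rTta (2.54% in all, 1.04% higher and 1.5% lower). Their own markers were more prominent in rTta animals. The summed level of the 13 microglia markers was 49100 to 62400 CPM in rTta, 23700 to 40100 in WT and 48900 to 56200 in P301L. The summed level of 12 neuron markers was 1590 to 2090 CPM in rTta against 3200 to 8910 in WT, that of 14 astrocyte markers 1920 to 2470 against 2960 to 7950, and no neuron or astrocyte marker was at 0. WT replicates 2 and 3 gave 26 and 27 microglia-like cells. The part of these shifts in the calls was not tested. Against P301L, whose microglia marker sum overlapped that of rTta, 20 genes were called (0.463%). Without rTta replicate 2 the count against WT was 22 and without WT replicate 5 it was 195. With the WT animals of 32 and 35 weeks alone it was 26.

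Fcrls, an Fc receptor-like protein of resident microglia and 1 of the 13 markers that named the class, measured 1690, 1770 and 1830 CPM in rTta animals. The WT animals gave 221, 181, 528, 239 and 171 and the P301L animals 209, 130 and 516. All rTta animals were over 3 times the highest animal of either other group. The log2 difference was 2.82 ± 0.47 against WT and 2.65 against P301L, given as a description because the gene helped name the class. Microglia-like cells formed 2 clusters, 17, led by cytokine genes such as Ccl4 and Il1b, and 18, led by P2ry12 and Cx3cr1. The rTta animals had 179 and 271 cells in them and the WT animals 199 and 201. Within cluster 17 alone the change in Fcrls was 2.83 and within cluster 18 alone 3.15.

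H2-DMa, a subunit of the chaperone that loads peptides on MHC class II, measured 196, 263 and 222 CPM in rTta animals and 0, 0, 0, 23.1 and 0 in WT. This was 99 against 3 counts, an rTta to WT ratio of 34.1 in CPM (95% counting interval: 11.3 to 168), with an edgeR adjusted p of 4.6e-06. P301L animals lay between, at 36.4, 39.6 and 94.8 CPM (edgeR adjusted p = 0.05). H2-DMa was the 1 called gene of 3 MHC class II genes tested. Il16, an interleukin, changed by 1.59 ± 0.45 (edgeR adjusted p = 0.045), a call lost under 14 of 17 alternatives, DESeq2 among them. The uncharacterised transcript G530011O06Rik changed by 3.47 ± 0.72 (edgeR adjusted p = 0.0053).

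Of 6 complement genes tested in microglia-like cells, 4 were called higher and none lower, with a median of 1.38 against 0.00 over all genes. Among the 4 are C1qb and C1qc, which belong to the 13 markers that named the class, so the count and the median rest in part on the genes that define these cells. C3ar1, the receptor for the C3a fragment, measured 322, 263 and 278 CPM against 108, 60.2, 120, 84.8 and 71.4 in WT (log2 change 1.69 ± 0.32, edgeR adjusted p = 0.0015). C1qb, a chain of the initiating C1q complex, measured 5510, 6440 and 7630 CPM against 2510, 2590, 2280, 1760 and 2810 (a difference of 1.51 on the log2 scale). Neither gene overlapped between rTta and WT animals. C1qc, another chain of the same complex, moved by 1.57. Both C1q values are given as a description. Against P301L none of these 3 passed, with changes of 0.37 to 0.57.

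Among 20 genes of homeostatic microglia, a list that shares genes with the markers that named the class, 3 were called higher, Fcrls and Olfml3 among them, and none lower. Their median change was 0.55. Olfml3, a secreted matrix protein, measured 1380, 1340 and 1400 CPM against 306, 391, 408, 439 and 614 in WT and 855, 820 and 1100 in P301L (1.73 ± 0.37, edgeR adjusted p = 0.0082). Among 20 genes of disease-associated microglia, 2 were called higher and none lower (median 0.72). Ctsl, a lysosomal protease, measured 953, 1060 and 1330 CPM against 285 to 476 (1.54 ± 0.30, edgeR adjusted p = 0.0026), and Cd9, a tetraspanin, 978 to 1270 against 351 to 697 (1.14 ± 0.29, edgeR adjusted p = 0.026). Within cluster 17 alone the medians of the 2 lists were 0.16 and 0.10, and Cd9 did not pass there. Rplp1, a ribosomal stalk protein, was the fourth of 47 ribosomal protein genes called higher in this class (1.16 ± 0.33, edgeR adjusted p = 0.044).

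Gatm, the first enzyme of creatine synthesis, fell in microglia-like cells. It measured 341, 151 and 270 CPM in rTta animals, 1270, 1290, 817, 956 and 1090 in WT and 1530, 1800 and 1150 in P301L. The rTta animals were below all others (log2 change -2.04 ± 0.33, edgeR adjusted p = 0.00012, against WT, and -2.57, edgeR adjusted p = 1.3e-05, against P301L). The fall was found in cluster 17 alone (-2.45) and in cluster 18 alone (-1.75), and the call held under every alternative that tested it. Ccdc80 had 3 counts over the rTta animals and 49 over the WT animals, a ratio of 15.8 in CPM (95% counting interval 5.10 to 79.3, edgeR adjusted p = 0.00073). It was also called below P301L (edgeR adjusted p = 0.00056).

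The remaining falls in microglia-like cells included genes of other cell types. Of 12 astrocyte glutamate, water and ion genes tested, 5 were called lower, all 12 had negative changes, and the median was -1.74. Gja1, connexin 43, which couples astrocytes by gap junctions, measured 25.2, 32.8 and 47.6 CPM against 108, 482, 408, 270 and 143 (-2.76 ± 0.59, edgeR adjusted p = 0.0090). The rTta and WT animals did not overlap. Gpr37l1 (-2.14 ± 0.52, edgeR adjusted p = 0.022) and Atp1b2 (-1.86 ± 0.52, edgeR adjusted p = 0.044) were also among the 5. Neuronal genes were also lower: Scg5 (-3.09 ± 0.57, edgeR adjusted p = 0.0017), Chgb, Rab3a, Stmn2, Gabrb2 and Gabra2 were each called. Prnp changed by -1.69 ± 0.39 (edgeR adjusted p = 0.013). Against P301L none of these passed, and the summed neuron and astrocyte markers given above moved the same way. Those sums include Stmn2 and Gja1, so they are not separate from these genes.

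**Figure D4:**
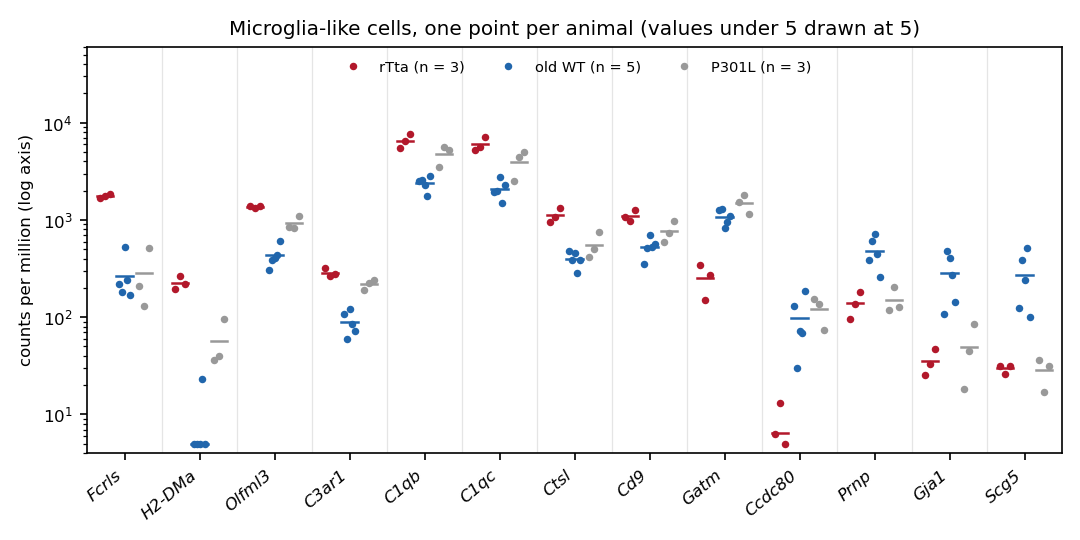
CPM (log axis) of 13 genes in microglia-like cells, with 1 point per animal, a bar at each group's mean and values under 5 drawn at 5. Fcrls and Gatm separate the rTta animals from both other groups, whereas for Scg5, Gja1 and Prnp the P301L animals lie with the rTta animals.

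Oligodendrocyte-like cells gave 78 calls among 5665 genes, 40 higher and 38 lower (1.38%), and 28 against P301L (0.494%). Without rTta replicate 2 the count against WT was 35. Gatm rose here. It measured 3660, 4000 and 3670 CPM in rTta animals, 1470, 1150, 1680, 1690 and 1660 in WT and 2050, 1530 and 2440 in P301L, with no overlap (log2 change 1.31 ± 0.18, edgeR adjusted p = 5.2e-06, and 0.93 against P301L, edgeR adjusted p = 0.01). In oligodendrocyte precursor-like cells it rose from 169 to 388 CPM in WT to between 584 and 858 (1.2 ± 0.29, edgeR adjusted p = 0.049), a call that was lost under 12 of 17 alternatives, leaving out rTta replicate 1, 2 or 3 among them. Gatm was the only gene of the 267 called in both directions. In whole hippocampus its change was 0.66 (edgeR adjusted p = 0.71).

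Fcho1, which starts clathrin-coated pits, was nearly absent from rTta oligodendrocyte-like cells. It measured 15.4, 0 and 4.87 CPM against 248, 211, 216, 231 and 161 in WT and 316, 387 and 225 in P301L. This was 4 counts against 259 in WT (log2 change -5.01 ± 0.56, edgeR adjusted p = 3.2e-07, and -5.53 against P301L, edgeR adjusted p = 1e-07). Eya2 had 2 counts against 104, a WT to rTta ratio of 28.6 in CPM (95% counting interval: 7.73 to 240, edgeR adjusted p = 4.9e-06), and was also below P301L (edgeR adjusted p = 4.4e-05). Hopx measured 46.1, 46.9 and 39.0 CPM against 164 to 586 (-3.16 ± 0.54, edgeR adjusted p = 0.0019). Fcho1, Eya2, Hopx, Hddc3 and Gatm kept their calls under every alternative that tested them. Psmc3ip had 1 count against 42, a WT to rTta ratio of 23.1 in CPM (95% counting interval: 3.93 to 935), and Scrg1 3 against 77, a ratio of 14.1 (4.66 to 70.1).

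Smaller changes were found in the same cells. Hspa5, the chaperone BiP of the endoplasmic reticulum, measured 379, 354 and 409 CPM against 713, 675, 840, 1030 and 794 in WT (log2 change -1.08 ± 0.23, edgeR adjusted p = 0.0058). It was the 1 called gene of 14 heat shock chaperones, whose median was -0.45. Apoe, the lipid carrier, measured 2640, 2640 and 3280 CPM against 4050 to 7230 in WT and 2230 to 3990 in P301L (-0.89 ± 0.21, edgeR adjusted p = 0.013). Cd59a, which blocks the terminal complement pore, changed by -1.53 ± 0.32 (edgeR adjusted p = 0.0040). Xaf1, an interferon-inducible gene, measured 127 to 179 CPM against 35.5 to 90.4 (1.26 ± 0.31, edgeR adjusted p = 0.017). Foxj1, a transcription factor of motile cilia, rose from 3.45 to 10 CPM to between 39.0 and 55.4 (2.89 ± 0.64, edgeR adjusted p = 0.0079, on 30 against 7 counts). The 6 ependymal markers summed to 87.0 to 93.8 CPM in rTta and 40.2 to 217 in WT. Foxj1 is 1 of these 6, so the sum is no separate reference for it. Of 18 myelin genes, a list that shares genes with the markers that named the class, 1 was called and 15 had positive changes. Their median was 0.32 against -0.04 over all genes. The called member, Opalin, a myelin membrane protein that leads the cluster, overlapped between groups at 1180 to 2330 against 603 to 1270 CPM. Astrocyte markers summed to 1770 to 2760 CPM in this class in rTta, 1670 to 5450 in WT and 1070 to 1560 in P301L. The 13 tested had a median change of -0.84 against WT, and their part in the Apoe and Hopx calls was not tested.

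**Figure D5:**
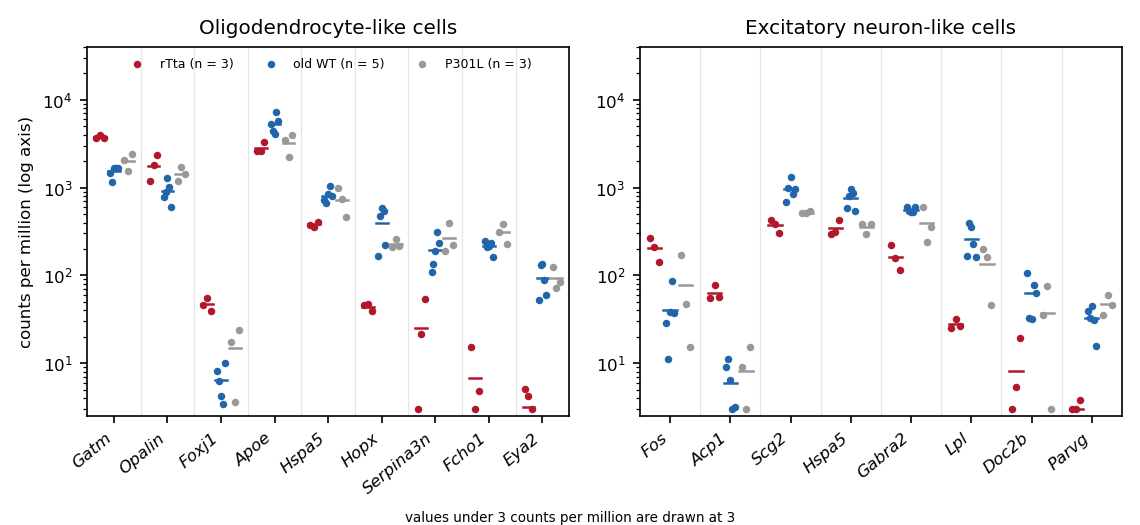
CPM (log axis) of 9 genes in oligodendrocyte-like cells (left) and 8 in excitatory neuron-like cells (right), with 1 point per animal, a bar at each group's mean and values under 3 drawn at 3. In oligodendrocyte-like cells Fcho1 stays at or below 15.4 in rTta against at least 161 in WT, and in excitatory neuron-like cells Fos is at least 142 in rTta against at most 86.1 in WT.

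Excitatory neuron-like cells, a type in which the published Camk2a promoter drives tTA, were mostly those of cluster 7, led by dentate granule genes such as C1ql3 and Calb1. That cluster held 393 rTta and 496 WT cells, and cluster 5 held 35 and 51. Cluster 3, led by CA pyramidal genes such as Fibcd1 and Pou3f1, stayed unnamed and was not tested, so the class is not all hippocampal excitatory neurons. It gave 49 calls among 7367 genes, 18 higher and 31 lower (0.665% in all, 0.244% higher and 0.421% lower), and 30 against P301L (0.407%). Without rTta replicate 2 the count against WT was 13, and with the WT animals of 32 and 35 weeks alone it was 10. Fos, the immediate early gene that follows neuronal firing, measured 264, 210 and 142 CPM in rTta animals, 28.8, 11, 38.5, 86.1 and 37.6 in WT and 170, 46.8 and 15.3 in P301L. The rTta and WT animals did not overlap, and P301L spread over both (log2 change 2.37 ± 0.37, edgeR adjusted p = 0.00023). Of 17 immediate early genes tested, 1 was called, 13 had positive changes, and the median was 0.72. The Fos call was lost with cells thinned to at most 1000 counts (1.28, edgeR adjusted p = 0.37) and with cells classed by marker share (0.52, edgeR adjusted p = 0.90). In whole hippocampus Fos did not pass (-0.33, edgeR adjusted p = 0.94), in oligodendrocyte precursor-like cells 11 of 12 immediate early genes had negative changes, and in endothelial-like cells all 19 tested did (median -0.96, none called).

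Of 11 neuropeptide and secretory granule genes tested in these neurons, 2 were called lower, Scg2 and Scg5. Scg2, the secretogranin precursor of secretoneurin, measured 423, 382 and 306 CPM against 679, 978, 1320, 846 and 964 in WT (log2 change -1.39 ± 0.33, edgeR adjusted p = 0.048), and Scg5 184, 231 and 337 against 452 to 1350 (-1.81 ± 0.35, edgeR adjusted p = 0.016). Hspa5 fell here as well, to 299, 308 and 432 CPM from 535 to 963 (-1.13 ± 0.25, edgeR adjusted p = 0.025), and P301L, at 298 to 383, lay with rTta. Lpl, which is among the leading genes of 1 of the 2 clusters of this class, was 24.9, 31.9 and 26.8 CPM against 163 to 396. In the other cluster alone its change was -4.10 (edgeR adjusted p = 7.7e-06). Acp1 rose to 54.8, 77.0 and 57.4 CPM from at most 11 (3.25 ± 0.64, edgeR adjusted p = 0.0050). Doc2b, a calcium sensor for vesicle release, measured 0, 5.31 and 19.1 CPM against 32.1 to 105 (-3.04 ± 0.71, edgeR adjusted p = 0.040). Parvg and St3gal1 each had 1 count against 41, a WT to rTta ratio of 27.5 in CPM (95% counting interval: 4.67 to 1110), and Sh3bgr 2 against 43, a ratio of 14.4 (3.76 to 123). Parvg was also below P301L (edgeR adjusted p = 0.0084).

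Neuron-like cells of clusters 0 and 1, led by genes such as Tshz2 and Nxph3, had 34 calls among 6548 genes, 12 higher and 22 lower (0.519%). Without rTta replicate 2 the count was 8 and without rTta replicate 1 it was 178. WT replicate 5, with 19 such cells, was left out, so 4 WT animals entered. Of 74 oxidative phosphorylation genes tested, 4 were called lower, 70 had negative changes, and the median was -0.74 against -0.02 over all genes. Cox4i1, a subunit of cytochrome c oxidase, measured 1270, 520 and 1020 CPM against 1870, 1770, 1490 and 1940 (log2 change -0.92 ± 0.23, edgeR adjusted p = 0.047). Ndufv2 of complex I, Uqcrq of complex III and Cox5a of complex IV changed by -1.15, -1.12 and -1.03 (edgeR adjusted p = 0.028, 0.028 and 0.047). For each, the rTta animals were below the 4 WT animals, with replicate 2 the lowest rTta animal. Without rTta replicate 1, 36 of these genes were called lower, and without rTta replicate 2 none was. With thinned cells none was called either, and the median was -0.63. Oligodendrocyte markers in this class summed to 426 to 1990 CPM in rTta and 1450 to 4740 in WT, and their part in these changes was not tested. In whole hippocampus 0 of 76 were called by edgeR and 69 had negative changes (median -0.43). Kcnh1, a voltage-gated potassium channel, rose to 83.0, 35.6 and 72.5 CPM from at most 17.4 (2.69 ± 0.67, edgeR adjusted p = 0.046).

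Interneuron-like cells gave 5 calls among 6513 genes (0.0768%), with WT replicate 2 left out for its 17 cells. These were Rpl3 and Rps2, higher, and Hddc3, Gabra2 and Scg5, lower. Scg5 measured 561, 539 and 544 CPM against 1370, 2140, 1700 and 1380 in WT (log2 change -1.65 ± 0.30, edgeR adjusted p = 0.0049). In the unnamed cluster 2, led by the nuclear transcript Kcnq1ot1, no gene was called by edgeR among 4107 (0.0%), none by DESeq2, and 228 had an unadjusted p under 0.05. Cluster 4 gave 19 calls among 4056 genes (0.468%). Apart from the ribosomal genes, Nell2, a secreted neuronal protein, rose to 704, 710 and 571 CPM from 188 to 387 (1.27 ± 0.30, edgeR adjusted p = 0.0087), and Serpina3n had 2 counts against 41.

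Astrocyte-like cells gave 16 calls among 5337 genes, 8 higher and 8 lower (0.3%). Aldh1a1, an enzyme that makes retinoic acid, measured 114, 175 and 186 CPM in rTta animals, 35.2, 10.7, 29.3, 10.1 and 0 in WT and 14.3, 20.4 and 44.2 in P301L. The rTta animals stood apart from both (log2 change 3.12 ± 0.50, edgeR adjusted p = 0.00028, and 2.73 against P301L, edgeR adjusted p = 0.035). Insig1, the endoplasmic reticulum sterol sensor that holds back SREBP, measured 256, 266 and 322 CPM against 46.9, 150, 68.4, 76.1 and 98.5 (1.78 ± 0.34, edgeR adjusted p = 0.0027). Of 17 cholesterol synthesis genes tested, Insig1 was the 1 called, 16 had positive changes, and the median was 0.83 against -0.03 over all genes. In whole hippocampus that median was 0.09. Beside this, the 14 astrocyte markers summed to 55300 to 61400 CPM in the class in rTta and 42200 to 54200 in WT, with no overlap, and their part in the change was not tested.

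Among the falls in astrocyte-like cells, Abhd1 had 1 count against 78, a WT to rTta ratio of 47.7 in CPM (95% counting interval: 8.31 to 1910), and Mamdc2 had 0 against 38, at least 7.75-fold lower. Both were also below P301L (edgeR adjusted p = 3.7e-05 and 0.0024). Sfrp1, a secreted Wnt antagonist, measured 11.4, 6.99 and 10.9 CPM against 54.7, 118, 166, 122 and 365 (log2 change -3.95 ± 0.78, edgeR adjusted p = 0.017). Hopx, which is abundant in these cells, measured 586, 454 and 415 CPM against 989, 1090, 1780, 1150 and 875 (-1.26 ± 0.26, edgeR adjusted p = 0.0074). Gabra2 changed by -1.50 ± 0.35 (edgeR adjusted p = 0.040). Zfp949 had 3 counts against 73 and Wdfy1 2 against 47.

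Oligodendrocyte precursor-like cells gave 7 calls among 3565 genes (0.196% in all, 0.112% higher, 0.0842% lower, and 0.0842% against P301L). The gene listed as Gtl3 measured 28.3, 28.2 and 16.8 CPM in rTta animals, 442, 479, 331, 404 and 416 in WT and 634, 588 and 459 in P301L. The rTta animals were far below both groups (log2 change -3.99 ± 0.50, edgeR adjusted p = 4.2e-08, and -4.48 against P301L, edgeR adjusted p = 1.5e-09). The call held under every alternative that tested it. Egr1, an immediate early transcription factor, measured 547, 409 and 404 CPM against 705 to 1520 in WT and 876 to 1260 in P301L (-1.41 ± 0.27, edgeR adjusted p = 0.0014, and -1.32 against P301L, edgeR adjusted p = 0.037). In endothelial-like cells 11 of 3860 genes were called (0.285%), with 0.233% higher and 0.0518% lower. Cthrc1, a secreted collagen-triple-helix protein, fell to 60.8, 48.9 and 61.3 CPM from 116 to 326 (-2.07 ± 0.41, edgeR adjusted p = 0.0075), and Mxra7 rose to 105 to 205 from at most 50.7 (2.57 ± 0.55, edgeR adjusted p = 0.022). In that class 12 mural markers summed to 355 to 1300 CPM in rTta and 1640 to 5510 in WT. Mural-like cells, with 3 animals a side, gave 1 call among 1361 genes (0.0735%): Ece1, which activates endothelins, at 771, 737 and 427 CPM against 123, 98.6 and 145 (2.34 ± 0.48, edgeR adjusted p = 0.044).

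For other gene groups no member passed in whole hippocampus. The 19 synaptic vesicle genes had a median change of 0.02, the 17 glutamate receptor genes 0.00, the 26 immediate early genes 0.06, the 17 dentate granule genes 0.17 and the 13 CA pyramidal genes -0.20. Syt1 and Snap25, of the vesicle release machinery, changed by 0.03 ± 0.32 and -0.02 ± 0.26 (edgeR adjusted p = 1.0 each), and Gria2, an AMPA receptor subunit, by -0.19 ± 0.32 (edgeR adjusted p = 0.96). The 20 homeostatic microglia genes had a median of 0.97 and the 12 microglia cytokine genes 0.84, with none called. Beside them, the 13 microglia markers summed to 4320 to 5830 CPM in rTta, 1390 to 2760 in WT and 4420 to 7870 in P301L hippocampus. In sums over all cells, a change in the number of cells of a type and a change in RNA per cell cannot be told apart.

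The share of each class among kept cells was compared over animals for 12 classes and clusters. None passed after adjustment. The smallest p belonged to mural-like cells, at 4.47, 3.33 and 4.55% of cells in rTta and 2.39, 1.40, 1.00, 2.58 and 2.58% in WT. These did not overlap (4.11% ± 0.682, SD, n = 3, against 1.99% ± 0.737, SD, n = 5, exact permutation test, two-sided, p = 0.0179, the smallest that 3 against 5 allows, adjusted p = 0.215). Endothelial-like cells made up 9.03% ± 1.65 against 6.5% ± 1.54 (exact permutation p = 0.0893, adjusted p = 0.321). Interneuron-like cells made up 2.57% ± 0.459 against 4.31% ± 1.27 (exact permutation p = 0.0714, adjusted p = 0.321). The microglia-like, oligodendrocyte-like and excitatory neuron-like classes were among the 12, and nothing is read from their shares because genes that lead their clusters differed between the groups. Choroid plexus cells numbered 3 in rTta and 62 in WT animals, of which 59 came from WT replicate 4.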

How the data were processed

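Counts of unique molecular identifiers per gene and cell were deposited by the authors as 1 table of 13685 genes and 30500 cell columns. Per the submitters' processing notes, bcl2fastq 2.18.0.12 and STAR 2.2 were used with the mm10 build. The counting tool, its annotation and its use of strand are not given in the sources used here. Every cell column was mapped to an animal, with 0 columns left unused.

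Cells with at least 300 counts were kept and clustered in scanpy 1.11.5 on 2000 variable genes and 40 principal components, giving 28 clusters at a Leiden resolution of 1. A cluster took a cell type's name when at least 3 of its markers, and a share of at least 0.6 of those measured, were 2-fold above the other cells. Any other list could reach at most 0.7 of the leading share. No other class could have more markers among the 10 leading genes. The neuron list was not held against the excitatory neuron and interneuron lists, nor they against it. The rule was set after the clusters were seen. Doublets were not called. Counts were summed per animal, over all kept cells and by class, leaving out an animal from a class where it had fewer than 20 cells. The 3 rTta and 5 WT sums were compared in edgeR 4.0.16 by the quasi-likelihood test with TMM scaling and its default low-count filter, in 1 fit of all 22 animals in 6 groups. P-values were adjusted over all genes tested by the Benjamini-Hochberg method, at a threshold of 0.05. DESeq2 1.42.0 was an alternative, beside other scalings, filters, class rules, thinning to 1000 counts and leaving out each animal.

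Shares of cells were compared by exact permutation over animals. Counting intervals are 95% and cover counting error only, and a group at 0 was set to a floor of 3 counts over the group. Total counts per animal, given in the report, set the precision of the counting only. P-values measure the spread between samples, and for edgeR that spread was estimated over the animals of all 6 groups, not only those compared. No label states how the animals were bred or prepared. Named genes were those at the transgenes, the called genes with the largest changes, a mean of at least 20 CPM in the higher group and animals that did not overlap, and the called or most abundant members of each list. The compared groups, members and lists were chosen with earlier results of these data known. Some genes that the naming rule takes are not reported here.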

Additional observations from a re-analysis of the deposited data

Results flagged for a closer look

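Of 248 groups of old WT animals tested for a sample far from the rest, 16 held one, and chance flags about 1 in 20 such groups. WT replicate 4 was the high animal for Serpina3n in cluster 4 (147 CPM) and in neuron-like cells (105 CPM), for Scg5 (857 CPM) and Nell2 (387 CPM) in cluster 4, for Gatm in astrocyte-like (254 CPM) and neuron-like cells (139 CPM), and for Hopx in excitatory neuron-like (94.0 CPM) and interneuron-like cells (213 CPM). The same animal stood apart in whole hippocampus for Ifitm3 (357 CPM), Ifitm2 (122 CPM) and H2-Ab1 (42.7 CPM). WT replicate 3 stood apart for Fcrls in microglia-like cells (528 CPM) and for the share of cluster 3 (8.02% of cells). WT replicate 2 stood apart for Gabra2 in microglia-like cells (0 CPM). In endothelial-like cells WT replicate 1 stood apart for Prnp (362 CPM) and WT replicate 2 for Hopx (485 CPM).

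Genes counted only in the rTta and P301L animals, which enter no comparison with WT, held 0.296, 0.297 and 0.301% of all counts in the 3 rTta animals. None of these genes had a count in WT animals.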

How the results depend on the processing

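No paired analysis was possible because no label says that a replicate number joins an rTta animal to a WT animal. Of 152 called gene and class pairs named, 152 kept their direction under every alternative, 41 also kept the call, and 111 lost it under at least 1. Genes named for the size of their change had animals that did not overlap. Leaving out 1 animal could therefore hardly reverse their direction, and the kept direction supports nothing. An alternative that did not test a gene was left out of its count, and a fit without an adjusted p was counted as keeping the call.

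The 25 calls in whole hippocampus became 51 with DESeq2, 80 with only the 8 animals of both groups (57 higher, 23 lower, against 7 and 18), 7 with the WT animals of 32 and 35 weeks and 49 without choroid plexus cells. The 16 calls against P301L became 82 without choroid plexus cells. Without the low-count filter, endothelial-like cells gave 32 calls, interneuron-like 14, mural-like 16 and precursor-like 19. With only the 8 animals, astrocyte-like cells gave 30, interneuron-like 3, microglia-like 187, mural-like 8, neuron-like 15 and precursor-like 11. With the WT animals of 32 and 35 weeks, excitatory cells gave 10, interneuron-like 1, microglia-like 26, mural-like 0, neuron-like 5 and cluster 2 gave 1. With thinned cells, endothelial-like gave 4, excitatory 27, interneuron-like 0, microglia-like 53, mural-like 0, neuron-like 3, precursor-like 3 and cluster 2 gave 1. Classing by marker share gave 5 endothelial-like, 32 excitatory, 49 microglia-like, 3 mural-like and 8 neuron-like calls, and cells classed alike by both rules gave 5, 22, 71, 2 and 7, with 2 in interneuron-like cells. DESeq2 gave 9 in cluster 4, 2 in mural-like and 69 in neuron-like cells. RLE scaling gave 1 in cluster 2 and 0 in mural-like cells. At least 500 counts per cell gave 70 in cluster 4. Clusters 17 and 18 alone, chosen after seeing the data as were the cells of both rules and cluster 7, gave 34 and 52. The causes were not tested.

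Leaving out 1 animal at a time gave 8 to 27 calls in whole hippocampus, 10 to 22 in astrocyte-like cells, 0 to 2 in cluster 2, 11 to 27 in cluster 4, 3 to 11 in endothelial-like, 13 to 46 in excitatory, 1 to 5 in interneuron-like, 22 to 195 in microglia-like, 0 to 1 in mural-like, 8 to 178 in neuron-like, 35 to 81 in oligodendrocyte-like and 3 to 10 in precursor-like cells.

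Differences in share, in percentage points, changed sign with at least 500 counts per cell for cluster 2 (-0.78), cluster 4 (-4.87), excitatory (1.34), neuron-like (0.99) and precursor-like cells (0.09), and by marker share for excitatory (2.06) and neuron-like cells (0.71). Leaving out 1 animal gave 0.20 to 0.97 for astrocyte-like, -0.90 to 2.37 for cluster 2, -2.81 to -1.08 for cluster 3, -1.71 to 5.41 for cluster 4, 1.95 to 3.47 for endothelial-like, -1.66 to 1.11 for excitatory, -1.97 to -1.22 for interneuron-like, 2.64 to 4.24 for microglia-like, 1.88 to 2.52 for mural-like, -0.94 to 0.93 for neuron-like, -8.35 to -3.08 for oligodendrocyte-like and -0.87 to 0.37 for precursor-like cells. The difference in median counts per cell was -240 with at least 500 counts (exact p = 0.0357), and -476 to -291 without 1 animal. That in genes per cell was -277 to -165.

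List medians moved as follows. The insertion genes gave -0.83 with only the 8 animals and with the younger WT animals. Oxidative phosphorylation genes in neuron-like cells gave -0.63 thinned and -0.52 by marker share. Neuropeptide genes gave -0.32 with the younger WT animals. Homeostatic microglia genes gave 0.16 in cluster 17. Disease-associated microglia genes gave 0.54 with the younger WT animals, 0.10 in cluster 17 and 0.88 in cluster 18. Complement genes gave 1.69 in cluster 18. Astrocyte genes in microglia-like cells gave -1.45 unfiltered, -1.33 with the younger WT animals, -1.41 thinned, -1.20 by marker share and -1.19 in cluster 17. Immediate early genes in excitatory cells gave 0.62 unfiltered, 0.51 with 8 animals, 0.35 with the younger WT animals, 0.20 thinned, 0.52 by marker share, 0.30 by both rules and 0.45 in cluster 7. Without 1 animal they ranged from -1.23 to -0.96 (insertion), -1.12 to -0.50 (oxidative phosphorylation), 0.57 to 0.85 (disease-associated), -1.87 to -1.34 (astrocyte) and 0.35 to 0.91 (immediate early).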
